A study of Homo sapiens with 2 samples.

Results

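The genes described here are the protein-coding neighbours of *DRAIC*, the long non-coding RNA (lncRNA) that was knocked down, in band 15q23 of human chromosome 15. They are *SPESP1*, *NOX5*, *GLCE*, *PAQR5*, *KIF23* and *RPLP1* before *DRAIC* and *TLE3*, *UACA*, *LARP6* and *THSD4* after it, in the order of rising chromosomal position. The 10 genes were taken by symbol from the platform annotation, and 8 of them had a transcript cluster, each with 1, among 17687 distinct symbols and 21448 transcript clusters in all. *SPESP1* and *NOX5* are unnamed in the annotation used here and have no value. The comparison asks whether genes beside the *DRAIC* locus differ when *DRAIC* RNA is targeted.

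VMRC-LCD is a lung adenocarcinoma cell line with neuroendocrine (NE) differentiation. The cells received the negative control siRNA (si-NC) or siRNA number 2 against *DRAIC* (si-*DRAIC*2), both at 20 nmol/L with 72 h of incubation. Total RNA of each condition was hybridized to 1 Human Clariom S array, so no difference has a replicate check or a p-value. All results come from 1 cell line and 1 targeting siRNA, so an effect of *DRAIC* and an effect of that siRNA on other transcripts cannot be told apart.

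The deposited values are log2 signals. Differences are given as si-*DRAIC*2 minus si-NC on this scale, so a negative value is a lower signal after the knockdown. A gene is called higher or lower past a 1.5-fold change, the threshold of the study's methods. The signals ran from 2.08 to 18.1 in si-NC and from 2.25 to 18.2 in si-*DRAIC*2. The level of genes that are not expressed was gauged with 494 genes presumed silent in a lung line, such as olfactory receptors and keratin-associated proteins. The 95th percentile of their mean log2 signals was 6.07, and mean signals of both arrays up to this value are called the silent range. No transcript cluster was named *DRAIC*, or *PCAT29*, the lncRNA gene beside it, so the knockdown could not be checked on these arrays. By RT-qPCR, the study reported less *DRAIC* RNA after the targeting siRNA used here than after the control siRNA. It chose this siRNA for the arrays because its knockdown was slightly stronger than that of the other siRNA tested. For the identity of the line, the 7 measured NE markers and the 4 epithelial markers lay above the silent range, the 3 leukocyte and 3 endothelial markers lay in it, and 2 of 4 fibroblast markers (*COL1A2* and *LUM*) lay above it. Of the lung adenocarcinoma markers, *SFTPB*, *NAPSA* and *SFTPC* lay in the silent range and *NKX2-1* just above it, so the lung origin rests on the label.

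An lncRNA can act in cis, on genes near the site of its own transcription, or in trans, elsewhere in the nucleus or in the cytoplasm. Cis effects are often looked for first in the neighbouring genes, because some nuclear lncRNAs bind chromatin or its regulators where they are made. An siRNA lowers the RNA after it is transcribed and leaves the act of transcription through the locus in place. The study cautions that siRNAs work poorly on nuclear RNAs, and it saw part of the *DRAIC* signal of VMRC-LCD in the nucleus. The neighbours of *DRAIC* have unrelated functions, from sugar chains of the cell surface to cell division, translation and gene repression, and share only their position.

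The *DRAIC* locus lies in a stretch that is rich in non-coding genes. From *SPESP1* to *THSD4*, the RefSeq table of GRCh38.p14 lists 48 genes, of which 13 are protein-coding and 23 are lncRNA genes, and 10 of the 48 had a value. *RPLP1* was the nearest coding gene before *DRAIC*, with 2 listed genes between them, and *TLE3* the nearest after it, with 7. Farther out, 4 listed genes separate *KIF23* from *DRAIC*, 7 *PAQR5*, 11 *GLCE*, 19 *UACA*, 21 *LARP6* and 27 *THSD4*. Several of these genes overlap others. *KIF23-AS1* overlaps both *PAQR5* and *KIF23*, *LINC02896* overlaps *RPLP1*, the microRNA gene *MIR629* lies in *TLE3*, and the readthrough gene *SPESP1-NOX5* joins *SPESP1* with *NOX5*. Whether the array's probes keep such pairs apart is not given in the sources used here.

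The sequences before the start sites are shown for *DRAIC*, for *RPLP1*, the nearest coding gene, for *GLCE* and *UACA*, the neighbours with the largest differences below and above 0, and for *KIF23*, which holds a motif known from cell cycle genes. Each is the 250 bases before the annotated start, from RefSeq (GRCh38.p14), 5′ to 3′ on the gene's strand, and capitals mark CCAAT or its reverse complement ATTGG and, in *KIF23*, TTTGAA.
DRAIC, chr15:69561470-69561719, + strand: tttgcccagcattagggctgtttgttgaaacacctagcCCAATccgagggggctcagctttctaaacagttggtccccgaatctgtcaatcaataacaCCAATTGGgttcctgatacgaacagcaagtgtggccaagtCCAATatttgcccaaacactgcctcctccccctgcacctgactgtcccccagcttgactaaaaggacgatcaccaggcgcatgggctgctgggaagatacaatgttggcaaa
RPLP1, chr15:69452568-69452817, + strand: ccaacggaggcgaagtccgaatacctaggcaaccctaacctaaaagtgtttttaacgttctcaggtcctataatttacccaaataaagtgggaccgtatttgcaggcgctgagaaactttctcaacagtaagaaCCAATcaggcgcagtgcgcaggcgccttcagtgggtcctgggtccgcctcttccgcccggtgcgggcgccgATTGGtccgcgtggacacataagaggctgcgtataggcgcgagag
KIF23, chr15:69414099-69414348, + strand: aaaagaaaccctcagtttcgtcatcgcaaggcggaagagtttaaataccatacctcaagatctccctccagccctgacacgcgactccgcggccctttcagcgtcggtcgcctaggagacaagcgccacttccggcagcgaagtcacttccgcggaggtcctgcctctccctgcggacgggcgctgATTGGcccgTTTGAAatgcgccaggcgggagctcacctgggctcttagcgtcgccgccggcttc
GLCE, chr15:69160385-69160634, + strand: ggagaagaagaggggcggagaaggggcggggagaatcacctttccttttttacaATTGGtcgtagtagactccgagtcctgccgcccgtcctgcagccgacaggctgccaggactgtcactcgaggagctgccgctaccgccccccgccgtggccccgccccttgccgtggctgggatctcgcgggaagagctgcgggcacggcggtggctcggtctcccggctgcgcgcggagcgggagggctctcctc
UACA, chr15:70763559-70763808, - strand: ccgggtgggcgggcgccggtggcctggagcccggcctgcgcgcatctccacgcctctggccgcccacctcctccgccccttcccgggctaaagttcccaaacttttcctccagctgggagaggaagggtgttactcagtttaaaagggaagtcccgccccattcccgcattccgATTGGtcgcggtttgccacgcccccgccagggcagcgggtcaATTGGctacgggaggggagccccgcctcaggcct

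The start regions of the coding neighbours vary in base composition, and some are richer and some poorer in G and C than that of *DRAIC*. The 250 bases before *DRAIC* hold 51.2% G and C and 5 CG dinucleotides, against medians of 58% and 11 over 35116 start regions of the RefSeq table. Those of *GLCE* (68.8% and 25), *UACA* (68% and 21) and *KIF23* (61.6% and 25) are richer in both, while *RPLP1* has 54.8% and 20. *SPESP1* (76.8% and 34) and *LARP6* (80.4% and 42, 79.2% and 37 at its starts) are richer as well. *NOX5* (48.4% and 0) is poorer in both than *DRAIC*. The starts of *TLE3* have 53.6% and 17, 70.8% and 28, and 51.6% and 4. Those of *THSD4* have 41.6% and 1, 70.4% and 21, and 54.4% and 3. CCAAT, the sequence bound by the factor NF-Y, was searched on both strands and occurs 4 times before *DRAIC*, where a CCAAT and an ATTGG overlap, and it is found in 32% of all start regions. It occurs 2 times before *RPLP1* and *UACA* and 1 time before *GLCE* and *KIF23*. CCAAT also occurs 1 time before the first start of *TLE3* and of *THSD4*, and not before *LARP6*, *SPESP1* or *NOX5*. TTTGAA, a form of the cell cycle homology region of mitotic genes, was found on the plus strand of *KIF23* with its first base 55 bases before the start, next to an ATTGG at 64, and on either strand of 13.3% of all start regions. TATAAA occurred before 1 of the 3 starts of *TLE3* (10.7% of all regions) and TTCGAA before none of the 9 neighbours with a listed start region (1.19%). *PAQR5* was not in that table. A match of letters is a description and not a binding site.

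Of the 8 measured neighbours, *GLCE* was lower than 1.5-fold in si-*DRAIC*2 and none was higher. Over all transcript clusters, 11.4% passed 1.5-fold, with 6.26% of the clusters lower and 5.13% higher. The 1 of 8 is 12.5%, close to that background, and is no result about the neighbours as a group. The 8 genes had 5 differences above 0 and 3 below, with a median of 0.16 against −0.011 over all transcript clusters. The median size of the difference, without its sign, was 0.38 for these 8 genes and 0.23 for all transcript clusters.

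**Figure D1:**
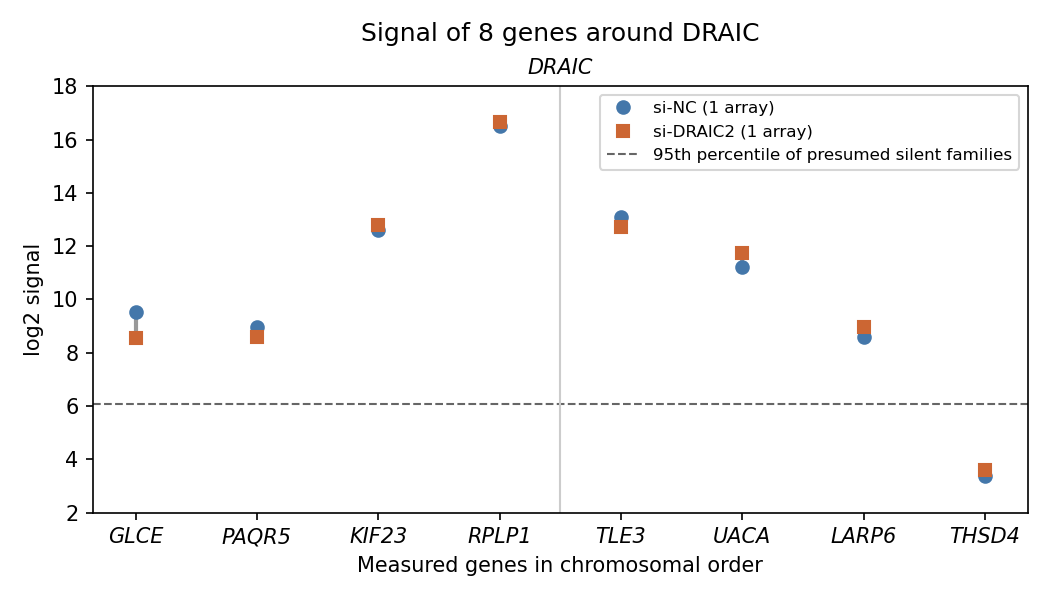
Log2 signal (y axis) of the 8 measured neighbours of *DRAIC* in chromosomal order, in si-NC (circles) and si-*DRAIC*2 (squares), 1 array each; the dashed line at 6.07 is the upper end of the silent range. *GLCE* shows the widest gap, from 9.52 to 8.56, and *THSD4* is the one gene under the line.

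*GLCE* encodes the epimerase that turns glucuronic acid into iduronic acid in heparan sulfate, the sulfated sugar chain of cell surface and matrix proteoglycans. Its log2 signal was 9.52 under si-NC and 8.56 under si-*DRAIC*2. The difference of −0.97 makes it 1.95-fold lower, just inside 2-fold. Among the 1000 transcript clusters nearest to it in mean signal, the differences had an SD of 0.36. Of these, 10.4% passed 1.5-fold and 1.4% had a difference at least as large as that of *GLCE* in either direction. In such bulk RNA, fewer cells that express a gene and less RNA per cell cannot be told apart.

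*PAQR5*, which lies next to *GLCE* and encodes a membrane receptor for progestins, had a smaller difference in the same direction. Its log2 signal was 8.97 under si-NC and 8.59 under si-*DRAIC*2, a difference of −0.39 or 1.31-fold. Clusters of like signal had a median of −0.048 and an SD of 0.38, and this gene lay within 1 SD of that median. *GLCE* and *PAQR5* both had a lower signal in si-*DRAIC*2, unlike the next genes toward *DRAIC*.

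The pair of coding genes closest to *DRAIC* on that side differed little. *KIF23* encodes a kinesin of the centralspindlin complex, which bundles microtubules between the separating chromosomes and is needed for cytokinesis. Its log2 signal was 12.62 under si-NC and 12.79 under si-*DRAIC*2, a difference of 0.17. *RPLP1* encodes an acidic protein of the ribosomal stalk, where elongation factors dock, and had 16.50 under si-NC and 16.64 under si-*DRAIC*2, a difference of 0.15. These are 1.13-fold and 1.11-fold, and clusters of like signal had SDs of 0.28 and 0.24. The RefSeq table lists 13 *RPLP1* pseudogenes, and the array may not tell their transcripts from those of *RPLP1*.

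*TLE3*, the first coding gene after *DRAIC*, had a lower signal without passing the threshold. It encodes a Groucho-type corepressor, which has no DNA-binding domain of its own and is brought to genes by transcription factors. Its log2 signal was 13.08 under si-NC and 12.71 under si-*DRAIC*2, a difference of −0.36 or 1.29-fold. Clusters of like signal had an SD of 0.27, and 3.8% of them passed 1.5-fold. A difference at least as large as that of *TLE3*, in either direction, was found in 14.7% of them.

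The following genes, *UACA* and *LARP6*, had a higher signal in si-*DRAIC*2, both within 1.5-fold. *UACA* encodes a coiled-coil protein that takes part in apoptosome signaling and binds the pro-apoptotic protein PAR-4. Its log2 signal was 11.21 under si-NC and 11.73 under si-*DRAIC*2, and the difference of 0.52 or 1.44-fold was the largest above 0 among the 8 genes. Clusters of like signal had an SD of 0.31 and 5.9% past 1.5-fold, and 10% had a difference at least as large in either direction. *LARP6*, an RNA-binding protein that attaches to a stem-loop in type I collagen mRNAs, had 8.58 under si-NC and 8.97 under si-*DRAIC*2, a difference of 0.40 or 1.32-fold. For *LARP6*, 26.5% of the clusters of like signal had a difference at least as large in either direction.

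*THSD4*, the farthest gene on that side, encodes an ADAMTS-like protein of fibrillin microfibrils. Its log2 signal was 3.38 under si-NC and 3.58 under si-*DRAIC*2, both within the silent range, so its difference of 0.20 belongs to a signal that could not be told from that of presumed silent genes.

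**Figure D2:**
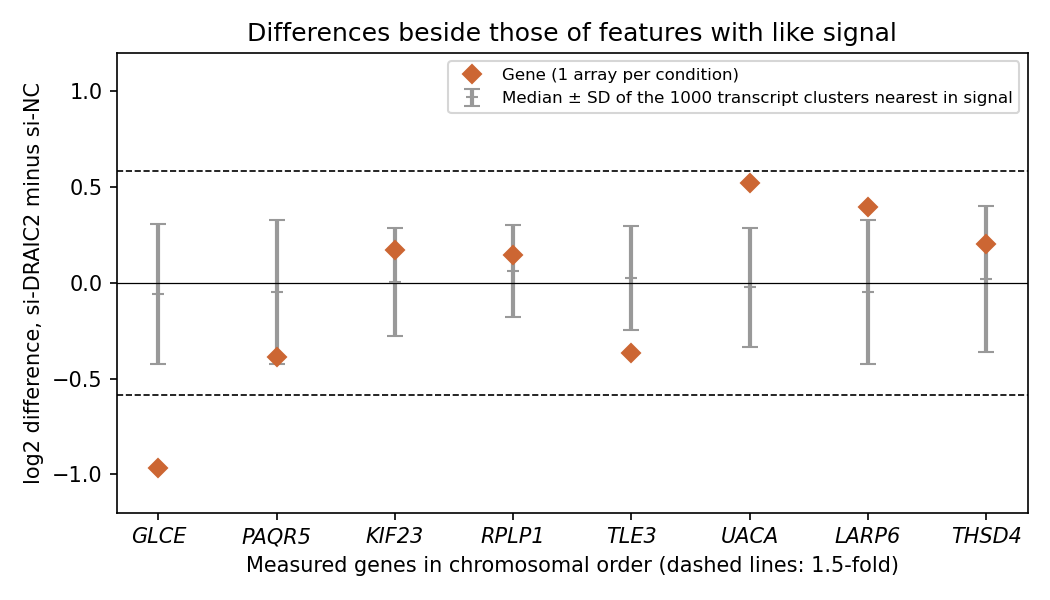
Log2 difference, si-*DRAIC*2 minus si-NC (y axis), of the 8 neighbours (diamonds, 1 array per condition) beside the median ± SD of the 1000 transcript clusters nearest in signal (grey bars); dashed lines mark 1.5-fold. *GLCE*, *TLE3*, *UACA* and *LARP6* lie outside the grey bars and the other 4 within them.

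Set against clusters of like signal, 4 of the 8 genes lay more than 1 SD from the median of those clusters and 4 lay within it. Measured in the same way, 29.1% of all transcript clusters lay more than 1 SD away, and 8 genes are too few to set apart from that share. *GLCE* and *TLE3* were on the lower side and *UACA* and *LARP6* on the higher side. The SDs ran from 0.24 to 0.38 and describe the spread among genes on this pair of arrays. They are not an error of the genes' own values, which 1 array per condition does not give.

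In a wider stretch, the 20 measured genes on each side of *DRAIC* were taken by gene order. Of these 40, which include the 8 genes, 5 were lower and 1 higher than 1.5-fold. The 6 make up 15% of the 40, beside the 11.4% of all transcript clusters. The median difference of the 40 was 0.032, with 21 above 0 and 19 below. Among the 33 of the 40 with a mean signal above the silent range, 6 (18.2%) passed, beside 9.25% of all transcript clusters above it. Their median was 0.031, with 17 above 0 and 16 below. Of the 520 measured genes of chromosome 15, 60 (11.5%) passed 1.5-fold, 31 higher and 29 lower.

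**Figure D3:**
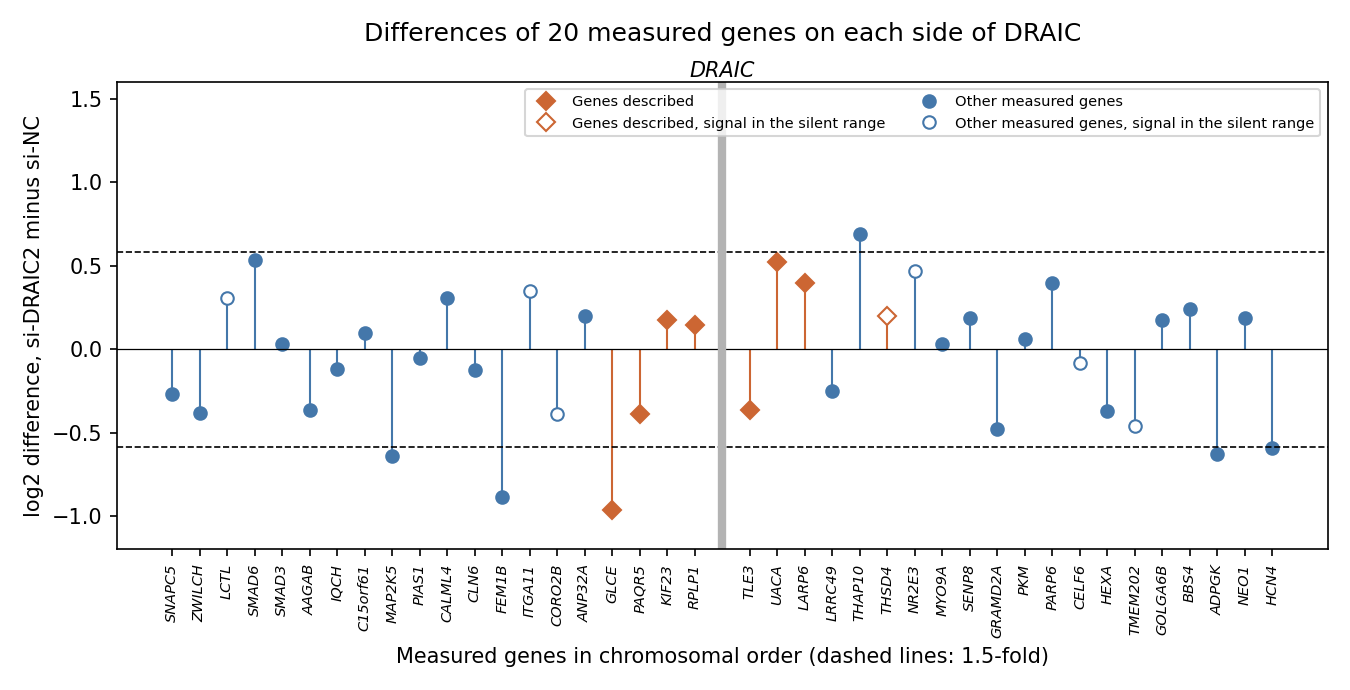
Log2 difference, si-*DRAIC*2 minus si-NC (y axis), of the 20 measured genes on each side of *DRAIC* in chromosomal order, 1 array per condition; diamonds are the genes described above, circles other genes, open symbols signals in the silent range, and dashed lines 1.5-fold. Differences above and below 0 occur on both sides, and 6 of 40 lie beyond the dashed lines.

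None of the 3 nearest measured genes on either side passed 1.5-fold (*RPLP1*, *KIF23* and *PAQR5*, and *TLE3*, *UACA* and *LARP6*). With 11.4% of all transcript clusters past it, 0 of 6 is near the background and says nothing of the position. Within 5 on each side there were *GLCE* and *THAP10* (20% of 10 genes), and within 10 also *FEM1B* (15% of 20). Within 20 on each side, 3 were lower before *DRAIC*, and 2 were lower and 1 higher after it. These are 15% of each side, beside 11.4% of all transcript clusters.

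*FEM1B*, the eighth measured gene before *DRAIC*, encodes a substrate receptor of a cullin-RING ubiquitin ligase. It had a log2 signal of 14.50 under si-NC and 13.61 under si-*DRAIC*2, a difference of −0.88 or 1.85-fold lower. *MAP2K5*, a kinase that activates the MAP kinase ERK5, had 6.78 and 6.14, a difference of −0.64 close to the silent range. These were the lower genes on that side besides *GLCE*, and measured genes within 1.5-fold lay between them.

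On the other side, *THAP10*, a gene of the THAP zinc finger family, had a log2 signal of 6.18 under si-NC and 6.87 under si-*DRAIC*2, 1.61-fold higher from a signal at the edge of the silent range. It overlaps *LRRC49*, which in turn overlaps *LARP6*. *LRRC49* had a difference of −0.25, opposite in sign to *LARP6* (0.40) and *THAP10* (0.69). *ADPGK*, an ADP-dependent glucokinase gene, was lower (10.02 under si-NC and 9.39 under si-*DRAIC*2), as was *HCN4*, a pacemaker channel gene (9.86 and 9.27). Both passed narrowly, at 1.55-fold and 1.51-fold.

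For each neighbour, a list of genes with a related role was examined, in the order of the genes along the chromosome. The lists hold 11 to 32 measured genes for most neighbours and 9 for the ribosomal stalk, and are described by counts and medians only. The share of a list past 1.5-fold ran from 0 to 18.2%, and is to be read against the 11.4% of all transcript clusters, or the 9.25% above and 14.2% in the silent range. The lists are small, and no count is taken as a result about a list.

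All 21 measured genes of the sperm acrosome and of sperm-egg fusion, the setting of *SPESP1*, lay in the silent range, and 2 of them (9.52%) passed 1.5-fold, *DCST1* with a difference of 0.67 and *IZUMO1* with −0.81. Of 16 measured genes of the NADPH oxidases, the family of *NOX5*, and of their partners, 3 lay above the silent range. These were *CYBA*, the shared small subunit (0.18), the GTPase gene *RAC1* (0.40) and the chaperone gene *HSP90AA1* (0.42). The measured catalytic oxidase genes, *NOX1*, *NOX3*, *NOX4*, *CYBB*, *DUOX1* and *DUOX2*, all lay in the silent range. *NOX1* (0.71) and *RAC2* (1.08) passed 1.5-fold from signals in the silent range, 12.5% of the list.

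The list for *GLCE* holds enzymes of heparan sulfate and of the related dermatan sulfate, and 2 of its 32 measured genes were lower and 2 higher than 1.5-fold. These are 12.5%, beside 11.4% of all transcript clusters. *EXT2*, a subunit of the polymerase that builds the chain, had 9.44 under si-NC and 8.62 under si-*DRAIC*2, a difference of −0.82. *B3GALT6*, a galactosyltransferase of the linker that ties the chain to the protein, had 9.09 and 8.29, a difference of −0.80. The higher genes were *XYLT1* (0.86), which starts the linker, and *UST* (0.84), a sulfotransferase of dermatan and chondroitin sulfate and not of heparan sulfate. Both were dim, with *XYLT1* in the silent range and *UST* at 5.79 and 6.62. *EXT1*, the partner of *EXT2*, had a difference of 0.48, and the sulfotransferase genes *HS2ST1* and *HS6ST1* had −0.24 and −0.56. The list had 20 differences below 0 and 12 above, with a median of −0.12.

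Among 11 measured genes of the progestin and adipoQ receptor family and its partners, *PAQR6* (0.85, in the silent range) and *MMD* (0.75) were higher than 1.5-fold and none was lower, or 18.2% beside 11.4% of all transcript clusters. *PAQR8* and *PAQR7*, further membrane progestin receptors, had differences of 0.040 and −0.48, the latter in the silent range. The adiponectin receptor genes had −0.18 (*ADIPOR1*) and 0.51 (*ADIPOR2*). The median of the list was 0.31, while *PAQR5* itself had −0.39.

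None of 27 measured genes of the central spindle and of cytokinesis passed 1.5-fold, and 4.5% of the clusters of like signal to *KIF23* did, so a count of 0 is near that background. *RACGAP1*, the other subunit of centralspindlin, had 14.40 under si-NC and 14.29 under si-*DRAIC*2, a difference of −0.12. *ECT2*, the RhoA activator that centralspindlin recruits, had −0.053, *PRC1*, the microtubule bundler of the spindle midzone, 0.43, and *PLK1*, its kinase, 0.32. The median of the list was 0.090, and all 27 genes lay above the silent range.

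Of the ribosomal stalk and elongation genes, 9 of 18 were measured, and *RPLP0* and *RPLP2*, the partners of *RPLP1* in the stalk, are unnamed here. *EEF1A2* was the one gene past 1.5-fold, with a difference of 0.60, or 11.1% of the list. *RPL12*, at the base of the stalk, had 0.19, *EEF1A1*, the elongation factor that brings aminoacyl-tRNA, 0.18 and *MRTO4*, a stalk assembly factor, 0.42. The median was 0.19, and *RPLP1* at 0.15 was close to it.

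In the 23 measured genes of the Groucho family and its partners, 3 were lower and 1 higher than 1.5-fold, or 17.4% beside 11.4% of all transcript clusters. *PRDM1*, a repressor that recruits Groucho proteins, had 7.54 under si-NC and 6.31 under si-*DRAIC*2 and was 2.35-fold lower. *HEY1* (−0.64) and *RUNX3* (−0.59) were lower as well, and *SIX3* (0.64) was higher within the silent range. The relatives of *TLE3* had −0.0082 (*TLE1*) and 0.21 (*TLE5*), and *TLE2*, *TLE4* and *TLE6* lay in the silent range. The median was −0.17, beside −0.36 for *TLE3*.

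**Figure D4:**
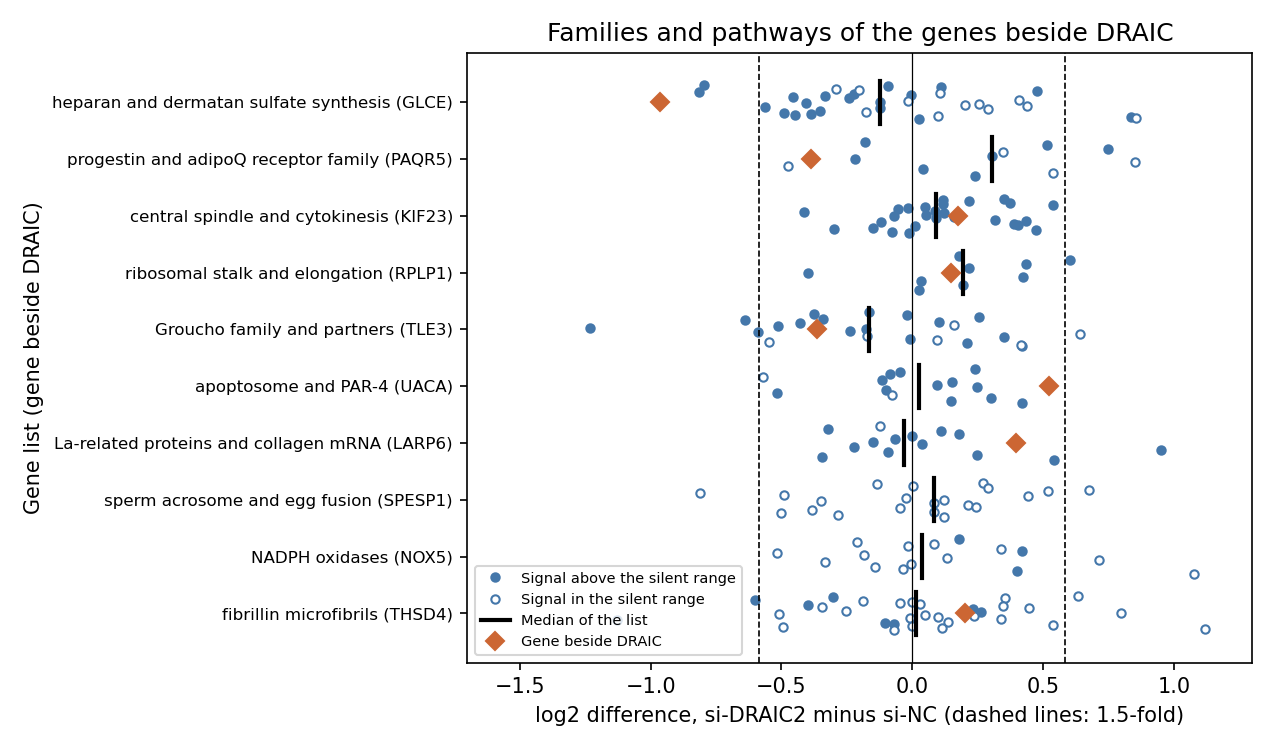
Log2 difference, si-*DRAIC*2 minus si-NC (x axis), of each gene in the lists named for the neighbours of *DRAIC* (y axis), 1 array per condition; open circles are signals in the silent range, black bars list medians, diamonds the neighbour itself and dashed lines 1.5-fold. The cytokinesis and apoptosome lists hold no gene past 1.5-fold, and *GLCE* lies below every gene of its list.

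None of 14 measured genes of the apoptosome and of PAR-4 passed 1.5-fold, near the 11.4% of all transcript clusters for a list of this size. *APAF1*, the scaffold of the apoptosome, had a difference of 0.24, its caspase *CASP9* 0.15, and *PAWR*, which encodes PAR-4, 0.15. *BCL2* (−0.57, in the silent range) and *HTRA2*, a mitochondrial protease gene (−0.52), were the furthest below 0. The median was 0.025, with 7 genes on each side of 0.

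In the list of La-related proteins and collagen mRNAs, *SERPINH1*, the collagen chaperone gene, was the one of 14 past 1.5-fold (7.14%, beside 11.4% of all transcript clusters). It had 8.90 under si-NC and 9.85 under si-*DRAIC*2 and was 1.93-fold higher. The other La-related genes lay between −0.22 (*LARP7*) and 0.035 (*LARP4B*), with *LARP6* above them at 0.40. The type I collagen genes had −0.12 (*COL1A1*, in the silent range) and −0.32 (*COL1A2*).

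Among 32 measured genes of fibrillin microfibrils, 3 were higher and 2 lower. These are 15.6%, beside 14.2% of all transcript clusters in the silent range, where 25 of the 32 lay, as did *THSD4*. *ADAMTS6*, a matrix protease gene, was the one gene past 1.5-fold above it, with 6.49 under si-NC and 5.89 under si-*DRAIC*2. *LTBP1* (−1.13), *THSD1* (1.12), *FBLN2* (0.80) and *ADAMTS10* (0.63) passed from signals in the silent range.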

How the data were processed

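Human Clariom S arrays measured total RNA of VMRC-LCD, 1 array for si-NC and 1 for si-*DRAIC*2. The log2 signals in the deposited table are the authors' SST-RMA output (background correction, quantile normalization and summarization) in the Transcriptome Analysis Console, also named with RMA in the submitters' processing notes. The sources used here give neither the software version nor the annotation build. Precision is limited by the number of arrays, and quantile normalization removes a change common to all transcripts.

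The values were used as deposited, and both columns were mapped by the labels. Symbols came from the platform annotation, with 17709 of 21448 transcript clusters named and all 17709 gene identifiers found in the RefSeq table under the same symbol. Rows of 1 symbol were averaged. Gene order came from the RefSeq table of GRCh38.p14, and no array coordinates are given, since no build is named for the array. No test was made. The genes and lists were chosen with earlier results of these data known. Named were the neighbours, the 3 measured genes next to *DRAIC* on each side, those of the 40 past 1.5-fold, and in each list those past 1.5-fold and close relatives or partners. The alternatives were a 2-fold threshold, centring on the median difference, subtraction of a loess on mean signal (span 0.3), 32 added to both linear signals, only rows above the silent range, distinct symbols, and 10 genes on each side of *DRAIC*. The procedure was tested on simulated data with known shifts far past 1.5-fold, which checks the calculation and not calls near the threshold. Calculations used Python 3.11.15, numpy 2.4.6, pandas 2.3.3, statsmodels 0.14.6 and matplotlib 3.10.9.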

Additional observations from a re-analysis of the deposited data

How the results depend on the processing

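The sign of the difference of each of the 8 neighbours was the same under every alternative that gave a value. Adding 32, taking distinct symbols or keeping only rows above the silent range cannot change the sign of a gene with 1 row. Only centring and the loess could have changed it. *GLCE* stayed past 1.5-fold in all 5 of its alternatives (−0.97 to −0.91), and no other neighbour passed in any. Distinct symbols and the restriction to rows above the silent range left the value of *GLCE* unchanged by construction. The difference of *THSD4* shrank to 0.052 with 32 added to both linear signals. With a 2-fold threshold, 0 of the 8 genes and 0 of the 40 measured genes around *DRAIC* passed, beside 1.6% of all transcript clusters. With 32 added, 3 of the 40 passed, 3 lower and 0 higher, beside 4.17% of all. *MAP2K5* (−0.47), *THAP10* (0.51) and *HCN4* (−0.57) then lay within 1.5-fold, and *HCN4* also did with the median difference set to 0 (−0.58) or after the loess (−0.55). With 10 genes on each side, 3 of 20 (15%) passed, 2 lower and 1 higher, beside 11.4% of all transcript clusters. The median difference of these 20 was 0.16, beside −0.011 over all transcript clusters. This narrower stretch holds fewer genes by construction. Of the list counts, 19 of 60 moved by more than 1.5 times, under the 2-fold threshold, the offset of 32 and the restriction to rows above the silent range. No paired analysis was possible because each condition has 1 array. With 1 array per condition, none of these values has an error of its own.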
